A study of Mus musculus with 4 samples.

Results

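Ptgs2 and Rgs2 are 2 of the 230 mouse genes whose FPKM values (sequenced fragments scaled to transcript length and library size) were analysed, and both were taken by their gene symbols. The values come from brain RNA of C57Bl/6 mice 6 weeks of age, with 1 library for each of 4 conditions. The tau+/+ mice received vehicle, which the labels call sham, or 50 mg/kg of pentylenetetrazole (PTZ), which causes seizures by blocking GABA-A receptors. The tau-/- mice, which lack the microtubule-associated protein tau, received vehicle or the same dose of PTZ, and brains were taken 1 h later. The study chose PTZ mice of similar seizure score for sequencing, and how many animals a library holds is not given in the sources used here. The labels also speak of cultured neurons, while the source they name is brain, and Mapt, the deleted gene, is not analysed here, so the genotypes rest on the labels.

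The 230 genes were selected by the study from these same libraries, for a change in tau+/+ after PTZ and for an absent or milder change in tau-/-. The tau+/+ response of Ptgs2 and Rgs2, and the smaller response in tau-/-, are therefore descriptions and not findings about genes at large. With 1 library per condition there is no replicate spread, and no test was made. A gene is said to have risen or fallen only where it passed 1.5-fold, the threshold of the study's methods. In bulk RNA, a change in the number of cells that express a gene and a change in the RNA per cell cannot be told apart.

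Ptgs2 encodes cyclooxygenase-2, the inducible enzyme that turns arachidonic acid into prostaglandin H2, from which the prostaglandins and thromboxane are made. In the forebrain it is made mainly by excitatory neurons, and seizures and synaptic activity induce it within an hour. Rgs2 encodes a regulator of G-protein signaling, a small protein that speeds the hydrolysis of GTP by heterotrimeric G proteins, with a preference for Gq, and so shortens signals from the receptors that use them. It is also an activity-induced gene.

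Both genes lie on chromosome 1 of GRCm38. Rgs2 (ENSMUSG00000026360) occupies 143999338 to 144004161 on the minus strand, and Ptgs2 (ENSMUSG00000032487) occupies 150100031 to 150108227 on the plus strand, 6.10 Mb away. The longest coding transcript has 4453 bases in 10 exons for Ptgs2 and 3021 bases in 5 exons for Rgs2. No other annotated gene overlaps either of them in GENCODE M21. Of the 230 genes, 212 were found there by symbol, 12 of these lie on chromosome 1, and 0 lie between Rgs2 and Ptgs2. The nearest coding gene to Ptgs2 is Pla2g4a, 139 kb away, which encodes the phospholipase that frees arachidonic acid. Rgs13, Rgs1, Rgs21 and Rgs18 start within 1.5 Mb of Rgs2, Rgs13 being the nearest at 134 kb, and neither these genes nor Pla2g4a are analysed here.

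The 250 bases before each start are shown because the genes moved together and because several inducible factors known to act on the Ptgs2 promoter are themselves in the list. They are RefSeq sequences of GRCm38.p6, read 5′ to 3′ on the strand of the gene, chr1:150099781-150100030 for Ptgs2 and chr1:144004150-144004399 for Rgs2. For Rgs2 the RefSeq start lies inside the GENCODE locus given above, so the window overlaps that locus, and its positions are counted from the RefSeq start. Capitals mark matches on either strand to 9 searched motifs, namely the cyclic AMP response element (CRE) TGACGTCA, its short form TGACG, the E-box CACGTG, the AP-1 motif TGANTCA, the TATA box TATAAA, the CCAAT box (its name gives its letters), the C/EBP motif TTGCGCAA, the GC box GGGCGG and the CArG box of serum response factor. The short form is part of the full CRE and may overlap other motifs.
Ptgs2: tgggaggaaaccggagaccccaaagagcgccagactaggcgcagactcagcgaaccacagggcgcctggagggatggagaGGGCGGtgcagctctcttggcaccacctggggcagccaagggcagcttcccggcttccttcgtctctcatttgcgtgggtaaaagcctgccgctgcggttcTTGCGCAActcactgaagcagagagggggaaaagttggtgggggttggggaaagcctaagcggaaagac
Rgs2: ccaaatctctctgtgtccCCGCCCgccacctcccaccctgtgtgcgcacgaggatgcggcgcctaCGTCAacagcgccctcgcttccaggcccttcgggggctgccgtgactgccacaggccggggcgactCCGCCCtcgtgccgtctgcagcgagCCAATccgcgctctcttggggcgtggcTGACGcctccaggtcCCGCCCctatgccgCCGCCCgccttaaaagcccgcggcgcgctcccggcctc

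The Ptgs2 window held the C/EBP motif TTGCGCAA, from 69 to 62 bases before the start. That motif stood in 0.164% of 32851 promoter windows of the same length. Exact motifs grow rarer with length, so this share is not comparable with those of the shorter motifs. Among 215 windows of listed genes, the Ptgs2 window was the only 1 with TTGCGCAA (0.465%), so that share says nothing about other listed genes. It also held 1 GC box, a motif found in 32.7% of all windows and 58.1% of listed ones. The Rgs2 window held 2 short CREs, which end 181 and 63 bases before the start, and TGACG stood in 17.8% of all windows and 36.3% of listed ones. It further held 1 CCAAT box, present in 33.8% of all windows and 39.1% of listed ones, and 4 GC boxes. The full CRE, the E-box, the AP-1 motif, the TATA box and the CArG box were in neither window, and these letters say nothing about what binds there. The windows had 61.6% G and C for Ptgs2 and 72.4% for Rgs2, against a median of 52.4% over all windows and 60.0% over those of listed genes.

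A further match in Ptgs2 lies just past the annotated start, and this wider window was chosen after the sequences had been seen. A short CRE on the minus strand, from 14 to 18 bases after the start, overlaps an E-box from 17 to 22 bases after it. The site is shown in capitals within chr1:150100038-150100058 of GRCm38.p6, plus strand.
Ptgs2 site: ccactaCGTCACGTGgagtcc
With 50 bases after the start included, TGACG stood in 20.8% of all windows and CACGTG in 7.15%, and in windows of listed genes the shares were 40.0% and 12.1%. In these wider windows both genes held the short CRE and the GC box, and they shared no other of the 9 motifs. The GC box stood in 35.7% of all wider windows and 61.9% of listed ones. Both shared motifs were thus common among listed genes, and the short CRE was shared only after the widening.

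The messages of both genes also carry ATTTA pentamers, the core of the AU-rich elements known to mark short-lived mRNAs. The longest coding transcript of Ptgs2 has 14 copies in a 3′ untranslated region of 2448 bases, or 5.72 per kb. This density exceeded that of 94.6% of 21015 coding genes. Rgs2 has 5 copies in 2345 bases, or 2.13 per kb, above 66.6% of coding genes. The median was 1.22 per kb over all coding genes and 1.66 per kb over the 209 listed genes with such a region, so Ptgs2 stood far into the upper end and Rgs2 in the upper middle. The densest 30 bases of Ptgs2, from base 15 to base 44 after the coding sequence, hold 4 of its copies, which are in capitals and overlap each other in part.
Ptgs2 AU-rich stretch: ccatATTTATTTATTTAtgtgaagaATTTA
No 30 bases of the Rgs2 region hold more than 1 copy.

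The tau-/- PTZ library stood apart from the others in markers of another cell type. Of 15 markers of choroid plexus epithelium, 10 were listed, and their summed level was 1557, 2583, 1146 and 38.3 FPKM in tau+/+ vehicle, tau+/+ PTZ, tau-/- vehicle and tau-/- PTZ. Ttr, the thyroid hormone carrier transthyretin, made up nearly all of this sum, and the other 9 summed to 53.7, 91.4, 38.6 and 5.28 FPKM in the same order. All 10 rose by over 1.5-fold in tau+/+, as did 76.1% of all listed genes, and fell by over 1.5-fold in tau-/-, as did 16.5%. All 10 were lowest in tau-/- PTZ, and none was at 0. The tau-/- response of Ptgs2 and Rgs2 and their comparison between genotypes after PTZ rest on this library and cannot be given without it. Their tau+/+ response and the comparison of vehicle libraries do not use it, though the markers also changed in tau+/+. The part of these marker changes in the values of the pair was not tested. Of 12 endothelial markers, Klf2 and Gimap6 were listed, with sums of 8.10, 15.2, 8.34 and 10.2 FPKM in the same order, both markers staying within 1.5-fold in tau-/-. Of 8 microglial markers, P2ry6 and Cd14 were listed, with sums of 1.95, 4.25, 3.06 and 2.89 FPKM, and of 5 astrocyte markers Fabp7 was, at 27.2, 41.9, 24.1 and 27.5 FPKM. These 3 markers also stayed within 1.5-fold in tau-/-, as did 74.8% of all listed genes. Listed markers passed the selection by the study, so they do not stand for their cell type as a whole. The part of these cell types was not tested either. None of the 8 neuronal and 4 oligodendrocyte markers is analysed here, so the brain label could not be checked against them.

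With vehicle, Ptgs2 was at 7.44 FPKM in tau+/+ mice and 7.53 FPKM in tau-/- mice, and with PTZ it was at 32.7 and 9.37 FPKM. The tau+/+ PTZ library was the high one, at 3.50 times the highest of the other 3. Ptgs2 thus rose 4.40-fold after PTZ in tau+/+, a log2 response of 2.14. In tau-/-, the level with PTZ was 1.24-fold that with vehicle, a log2 difference of 0.32, which did not pass 1.5-fold. Counted in FPKM, the difference in tau-/- was 1.84 FPKM against 25.3 FPKM in tau+/+, or 7.28% of it.

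With vehicle, Rgs2 was at 11.0 FPKM in tau+/+ mice and 10.2 FPKM in tau-/- mice, and with PTZ it was at 34.4 and 10.1 FPKM. Here too, tau+/+ PTZ stood alone and the other 3 libraries lay close together. Rgs2 rose 3.12-fold in tau+/+, a log2 response of 1.64. In tau-/-, the ratio of PTZ to vehicle was 0.986, a log2 difference of -0.021, which turned to 0.083 when the tau-/- libraries were rescaled so that the median log2 change over the listed genes, -0.10 as deposited, became 0.

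**Figure D1:**
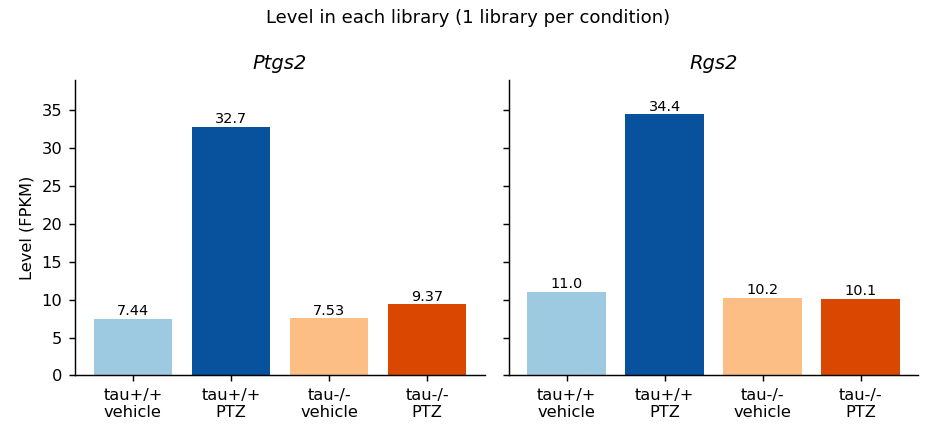
Level of Ptgs2 and Rgs2 in FPKM (y axis, from 0) in each of the 4 libraries (x axis), 1 bar per library and no error bars because each condition has 1 library. In both panels the tau+/+ PTZ bar, at 32.7 FPKM for Ptgs2 and 34.4 FPKM for Rgs2, is over 3 times the height of every other bar.

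Both genes passed 1.5-fold upward in tau+/+ after PTZ, as did 76.1% of the 230 genes, a share fixed by how the list was made. Both stayed within 1.5-fold in tau-/-, as did 74.8% of the listed genes, so in this the pair was like the list around it. By size of the tau+/+ response, Ptgs2 was number 25 and Rgs2 number 47 of 230. The log2 response in tau-/- of Ptgs2 exceeded that of 78.3% of the 175 genes that rose in tau+/+, and that of Rgs2 exceeded 54.3% of them. The medians of these 175 genes were 0.97 and -0.062 in the 2 genotypes. The 2 log2 responses differed by 1.82 for Ptgs2 and by 1.66 for Rgs2, against a median of 1.24 over the 175 genes.

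Genes with nearly the same tau+/+ response did not all behave like the pair in tau-/-. Dusp1, a phosphatase of MAP kinases, came just above Ptgs2 in that order, and its log2 responses were 2.21 (tau+/+) and 1.11 (tau-/-). Gadd45g, a growth arrest gene, came just below, with 2.11 and -0.40. Next to Rgs2 were the transcription factor Klf4, with 1.66 and 1.12, and the AP-1 subunit Fosl2, with 1.63 and 0.40. The neighbors of the pair thus ran from a rise in tau-/- (Dusp1 and Klf4) to values within 1.5-fold (Fosl2 and Gadd45g).

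**Figure D2:**
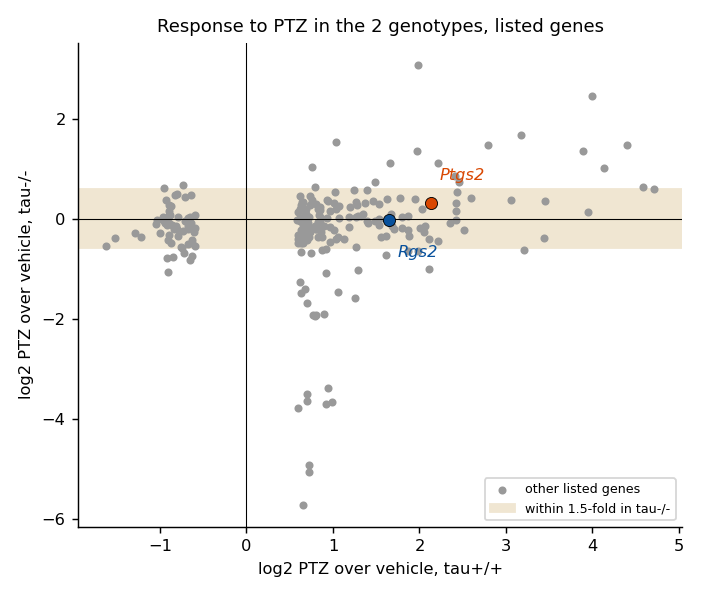
Log2 of PTZ over vehicle in tau+/+ (x axis) against the same in tau-/- (y axis), 1 point per listed gene, with the band of 1.5-fold in tau-/- shaded. Defb11 is not drawn, since its tau-/- PTZ value is listed at 0, and Ptgs2 (2.14, 0.32) and Rgs2 (1.64, -0.021) both lie inside the band, while no point lies within 1.5-fold on the x axis because of how the list was selected.

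Before PTZ, the genotypes were close for both genes. The tau-/- vehicle level was 1.01 times the tau+/+ vehicle level for Ptgs2, a log2 difference of 0.016, and 0.929 times for Rgs2, a log2 difference of -0.11. In this comparison 76.1% of the listed genes stayed within 1.5-fold, so the pair was again no exception. Yet the 175 rising genes had a median log2 difference of 0.23, and the value of Ptgs2 was above only 31.4% of them and that of Rgs2 above only 24.0%. After PTZ, the tau-/- level was lower by a log2 of 1.81 for Ptgs2 and 1.77 for Rgs2, or 3.50-fold and 3.41-fold higher in tau+/+. Here 60.4% of the listed genes were lower by over 1.5-fold in tau-/-.

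Because the vehicle levels were so alike, the choice of baseline mattered little for this pair. Set against tau+/+ vehicle, the log2 difference of tau-/- PTZ was 0.33 for Ptgs2 and -0.13 for Rgs2, both within 1.5-fold, as were 71.3% of the listed genes. These comparisons share libraries and are not independent of each other.

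The other 3 libraries of Rgs2 spanned 10.1 to 11.0 FPKM, a ratio of 1.09 from highest to lowest. Those of Ptgs2 spanned 7.44 to 9.37 FPKM, a ratio of 1.26. Across the 85 genes (37% of the list) with a tau+/+ response of at least 2-fold, the median of this ratio was 1.59. Only 1 of the 85 genes had a smaller ratio than Rgs2, and 14 had a smaller one than Ptgs2. So among strongly rising genes, Rgs2 was close to the flattest outside tau+/+ PTZ, and most of the small spread in Ptgs2 came from its slightly higher value in tau-/- PTZ. The ratio takes in the tau-/- response, for which the list was selected. The 85 genes also include low ones such as Gal, at 0.378 FPKM in tau+/+ vehicle, so the ratios of genes at unlike levels are not strictly comparable.

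**Figure D3:**
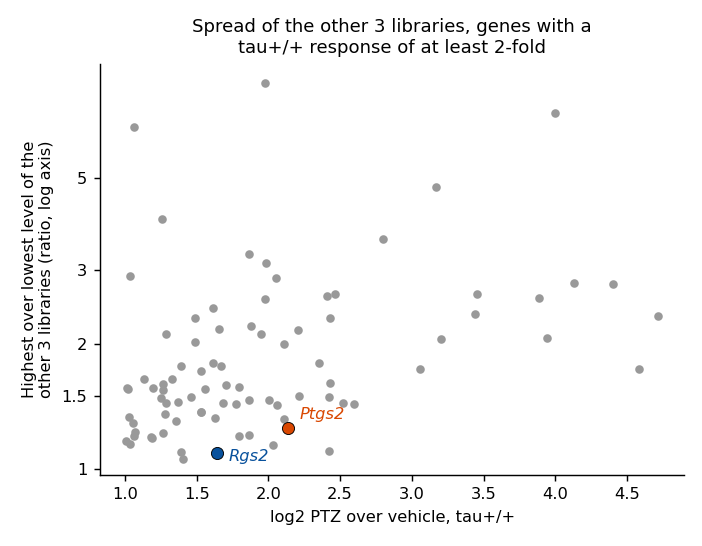
Ratio of the highest to the lowest level among tau+/+ vehicle, tau-/- vehicle and tau-/- PTZ (y axis, log scale) against the log2 response in tau+/+ (x axis), for the 85 listed genes with a tau+/+ response of at least 2-fold, 1 point per gene. Rgs2 (1.09) lies almost at the bottom of the plot and Ptgs2 (1.26) somewhat above it, below the median of 1.59.

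FPKM is scaled to transcript length, so the levels of the pair can be set side by side. Ptgs2 stood at 0.676 of the Rgs2 level in tau+/+ vehicle and at 0.735 in tau-/- vehicle. With PTZ the ratios were 0.951 and 0.928, which in neither genotype differ from those with vehicle by 1.5-fold.

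Likeness of pattern was measured as the Euclidean distance between log2 FPKM profiles over the 4 libraries, each centered on its own mean. Ptgs2 and Rgs2 were 0.42 apart, and Rgs2 was number 9 of 228 genes in nearness to Ptgs2, while Ptgs2 was number 7 in nearness to Rgs2. The median distance of a listed gene was 1.34 from Ptgs2 and 1.13 from Rgs2. With 4 shared libraries and a list picked for a rise in 1 of them, many genes have similar profiles, and the distances are given as a description.

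The 5 genes nearest to Ptgs2 were Adamts1, Gal, Nfkbiz, Ier2 and Gm13889, at distances of 0.22 to 0.35. Adamts1, a secreted protease that cleaves proteoglycans, was at 4.59, 18.7, 4.09 and 4.68 FPKM in tau+/+ vehicle, tau+/+ PTZ, tau-/- vehicle and tau-/- PTZ. It repeated the shape of Ptgs2 at a lower level, with a log2 response of 0.19 in tau-/-. Gal, the neuropeptide galanin, was at 0.378 FPKM in tau+/+ vehicle and under 1 FPKM in both tau-/- libraries, low levels whose error is unknown. Gm13889, a predicted gene, had log2 responses of 2.42 and 0.15. Ier2, an immediate early gene, had 2.59 and 0.42, and Nfkbiz, an inducible nuclear regulator of NF-kappaB, had 1.87 and 0.048.

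The 5 genes nearest to Rgs2 were Fbxo33, Nfkbiz, Pcdh8, Ppp1r36 and Adamts1, at distances of 0.28 to 0.34, so Nfkbiz and Adamts1 were near both members. Fbxo33, a substrate adaptor of a ubiquitin ligase, was at 11.0, 29.1, 11.1 and 10.5 FPKM in that order of libraries, levels much like those of Rgs2 itself. Pcdh8, an activity-regulated cadherin also called arcadlin, was at 16.8, 58.3, 19.6 and 20.2 FPKM. Ppp1r36, a regulatory subunit of protein phosphatase 1, stayed under 1.6 FPKM in all 4 libraries. When a pseudocount of 1 FPKM was added, 3 of the 5 neighbors of each gene were found again, and by Pearson correlation 2 of 5 for each.

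**Figure D4:**
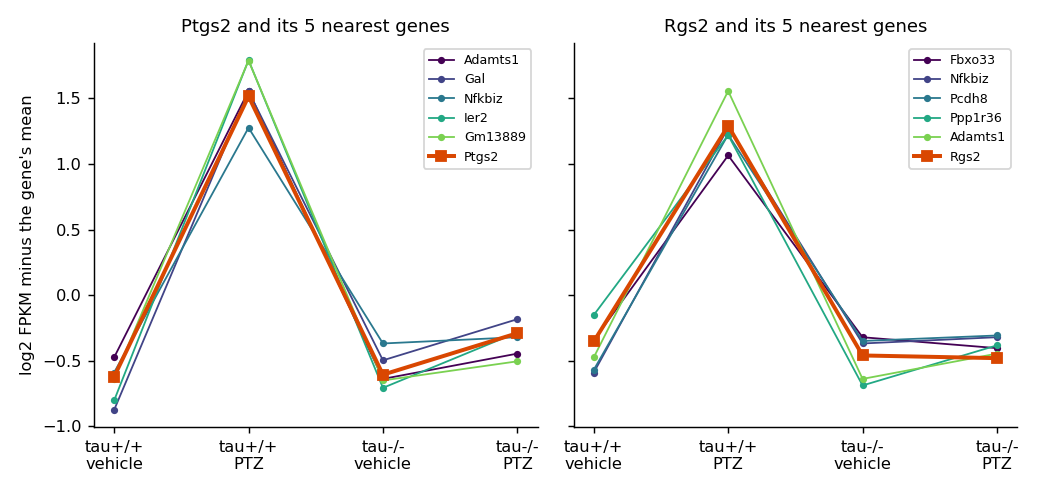
Log2 FPKM minus the mean of the gene over the 4 libraries (y axis) in each library (x axis) for Ptgs2 (left) and Rgs2 (right), each as a thick line with its 5 nearest listed genes as thin lines. All lines peak in tau+/+ PTZ and lie below the gene's mean in the other 3 libraries, and the Rgs2 line is level between tau-/- vehicle and tau-/- PTZ, at 10.2 and 10.1 FPKM.

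Few other genes of the pathways of this pair were among the 230. Of 27 genes that free, convert, sense or break down prostanoids and related lipids, only Ptgs2 was listed, and of 23 RGS genes only Rgs2 was. The other synthases, the prostaglandin receptors and the other RGS genes are not analysed here. Of 44 ligands, receptors, subunits and effectors of heterotrimeric G proteins, 3 were listed, and all 3 rose in tau+/+ and stayed within 1.5-fold in tau-/-, as did 76.1% and 74.8% of all listed genes. Galanin acts on receptors of this kind, and Gal had the largest log2 response of the 3, at 2.43 and 0.31 in the 2 genotypes. Gpr19, an orphan receptor, was at 7.18, 11.9, 7.13 and 7.32 FPKM in tau+/+ vehicle, tau+/+ PTZ, tau-/- vehicle and tau-/- PTZ, again flat outside tau+/+ PTZ. P2ry6, a Gq-coupled receptor for the nucleotide UDP, was at 1.25 FPKM in tau+/+ vehicle but at 2.09 FPKM in tau-/- vehicle, close to its 2.21 FPKM in tau+/+ PTZ, and its log2 responses were 0.83 and -0.062.

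Small GTPases are a second family of GTP-driven switches, apart from the heterotrimeric G proteins on which Rgs2 acts. Of 32 small GTPases and their partners, 10 were listed, of which 8 rose and 2 fell in tau+/+, where 23.9% of all listed genes fell. In tau-/-, where 8.7% of listed genes rose and 16.5% fell, 9 of the 10 stayed within 1.5-fold and Arl4d fell, with medians over the 10 genes of 1.04 in tau+/+ and -0.14 in tau-/-, against 0.80 and -0.10 over all listed genes. Arl4d, a GTPase of the ARF family, was at 5.12, 47.2, 10.5 and 6.85 FPKM in tau+/+ vehicle, tau+/+ PTZ, tau-/- vehicle and tau-/- PTZ. Its tau-/- log2 response of -0.62 passed the threshold, a log2 of 0.585 in size, only narrowly. Its vehicle level was higher in tau-/- by a log2 of 1.04, against 0.016 for Ptgs2 and -0.11 for Rgs2. Gem, a GTPase that restrains voltage-gated calcium channels, had log2 responses of 1.88 and -0.35, its vehicle level being 0.836 FPKM in tau+/+ but 1.84 FPKM in tau-/-. Rasl11a, a Ras-like GTPase, had log2 responses of 1.80 and -0.18, while the related Rasl11b had 0.70 and -0.20.

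The rest of this list moved in both directions in tau+/+ and stayed within 1.5-fold in tau-/-. Errfi1, an inhibitor of the EGF receptor, had log2 responses of 2.35 and -0.093. Spry2, an inhibitor of signals from receptor tyrosine kinases to Ras, had 0.74 and 0.45, and Arl5b, another ARF-family GTPase, had 1.35 and 0.094. Net1, a guanine nucleotide exchange factor, had 0.68 and -0.41. Rnd1 and Cit were the 2 that fell in tau+/+, with log2 responses of -0.67 and -0.59, and were at 0.0076 and 0.075 in tau-/-.

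Of 24 transcription factors known to act through elements of the Ptgs2 promoter, 9 were listed, and all 9 rose in tau+/+, where 76.1% of all listed genes did. In tau-/-, Atf3, Fos and Fosb rose, Cebpb fell, and the other 5 stayed within 1.5-fold. Over the whole list these shares were 8.7%, 16.5% and 74.8%. The rise of Fosb, a log2 of 0.60, passed the threshold of 0.585 only narrowly. Atf3 had low tau-/- levels, 0.386 (vehicle) and 1.08 FPKM (PTZ), whose error is unknown. Neither call was rerun with a pseudocount, so the number of rises among the 9 is uncertain. The medians over the 9 genes were 2.42 in tau+/+ and 0.37 in tau-/-, against 0.80 and -0.10 over the list. Over the 175 listed genes that rose in tau+/+, the medians were 0.97 and -0.062. Cebpb, which encodes the C/EBP beta protein that binds motifs such as the one capitalized in the Ptgs2 promoter above, was at 2.37, 5.78, 4.99 and 2.46 FPKM in tau+/+ vehicle, tau+/+ PTZ, tau-/- vehicle and tau-/- PTZ. Its tau-/- vehicle level was thus near that of tau+/+ PTZ, and its log2 responses were 1.29 and -1.02. Those of Ptgs2 were 2.14 and 0.32, and a link between Cebpb and Ptgs2 was not tested. Fos, an AP-1 subunit, had log2 responses of 4.13 and 1.01, Fosb had 4.72 and 0.60, and Atf3, a stress-induced factor of the ATF/CREB family, had 4.40 and 1.48. Jun and Junb had tau-/- responses of 0.20 and 0.37, those of Fosl2 and Ptgs2 being 0.40 and 0.32. Egr1, a zinc finger factor, and Srf, the serum response factor, were at 2.42 and 0.63 in tau+/+, against -0.022 and -0.24 in tau-/-.

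**Figure D5:**
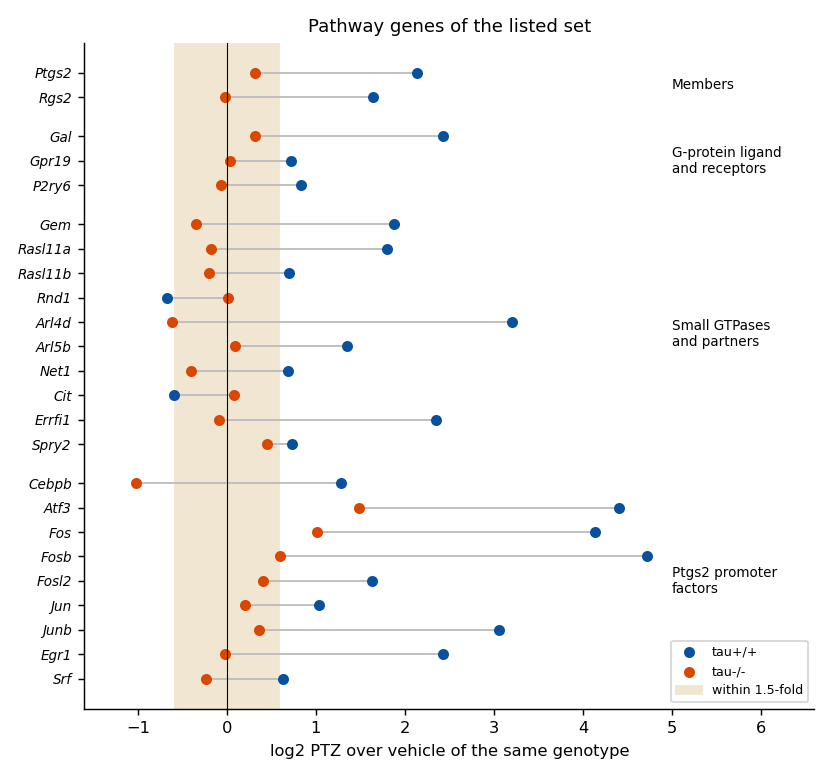
Log2 of PTZ over vehicle of the same genotype (x axis) for Ptgs2, Rgs2 and each listed gene of 3 pathway lists (y axis), with tau+/+ in blue and tau-/- in orange and the band of 1.5-fold shaded. Ptgs2 and Rgs2 lie inside the band in tau-/-, while Arl4d and Cebpb lie left of it and Fos, Fosb and Atf3 right of it.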

How the data were processed

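The authors made 1 brain RNA library for each genotype and injection. Per the labels, the submitters' processing notes name CASAVA 1.7, TopHat2 2.03, Bowtie2 2.0.0.6 and Cuffdiff 2.01 with mm10. The deposited FPKM values come from Cuffdiff and cover 230 genes chosen by the authors. The same table holds the authors' own log2 fold changes and p-values, which were not used. FPKM gives no fragment counts, so depth and counting error are unknown, and low values carry an unknown error.

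Log2 ratios were computed from FPKM without a pseudocount, with 1.5-fold as threshold and no test. Genes named are Ptgs2 and Rgs2, listed genes of fixed pathway lists, the 5 nearest in profile, and the gene above and below each in tau+/+ response. Marker lists were given by sums. The members and lists were chosen with earlier results of these data known. Alternatives were pseudocounts of 0.1 and 1 FPKM, tau+/+ vehicle as baseline, rescaled tau-/- libraries, a 2-fold threshold, a mean of at least 1 FPKM, and other measures of likeness. Loci and transcripts are from GENCODE M21 on GRCm38, promoters from RefSeq on GRCm38.p6, which held 158 of the 230 genes by symbol. The code, tested on simulated data, passed 10 of 10 checks. It ran in Python 3.11.15 with pandas 2.3.3 and numpy 2.4.6, and figures were drawn with matplotlib 3.10.9. The annotation used by the authors is not given in the sources used here.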

Additional observations from a re-analysis of the deposited data

Results flagged for a closer look

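Rgs2 was above vehicle in the tau+/+ PTZ library and marginally below it in the tau-/- PTZ library, with a log2 difference of -0.021, far inside 1.5-fold. The difference between genotypes was not tested, here or for the genes that follow, since each condition has 1 library. Of 34 named genes, 15 differed in sign between the genotypes, as did 114 of all 230, and 2 of the 15 passed 1.5-fold in tau-/-. These 2 were Cebpb, at -1.02 in tau-/-, and Arl4d, at -0.62, only narrowly past the threshold of 0.585 in size. In both, the tau-/- vehicle level was above that of tau+/+ vehicle, with log2 differences of 1.08 and 1.04.

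Of the other genes that rose in tau+/+, the log2 differences in tau-/- were -0.062 for P2ry6, -0.35 for Gem, -0.18 for Rasl11a, -0.20 for Rasl11b, -0.41 for Net1, -0.093 for Errfi1, -0.022 for Egr1, -0.24 for Srf, -0.40 for Gadd45g and -0.083 for Fbxo33. For Rnd1 and Cit, which fell in tau+/+, they were 0.0076 and 0.075.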

How the results depend on the processing

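Under each alternative run, every value of Ptgs2 and Rgs2 past 1.5-fold stayed past it in the same direction. Every value within 1.5-fold stayed within it. At levels of 7.44 FPKM or more, the pseudocounts could change these values little. The rescaling used the median of a list selected for its tau-/- response, so it is no independent normalization. A pseudocount of 0.1 FPKM moved none of the values of the pair by over 0.1 on the log2 scale. With 1 FPKM, Ptgs2 had a log2 response of 1.999 in tau+/+, a difference of -1.70 between genotypes after PTZ and of 1.72 between the responses. With the tau-/- libraries rescaled to a median change of 0, the tau-/- response was 0.42 for Ptgs2 and 0.083 for Rgs2, and the responses differed by 1.72 and 1.56. With tau+/+ vehicle as baseline, the Rgs2 response in tau-/- was -0.13 and the responses differed by 1.77.

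At 2-fold, 84.8% of listed genes were within the threshold in tau-/-, 93.9% were between the vehicle libraries, 37.0% were lower in tau-/- after PTZ and 37.0% rose in tau+/+. With a pseudocount of 1 FPKM at 1.5-fold, these shares were 85.7%, 89.6%, 51.7% and 58.7%. A mean of at least 1 FPKM changed none beyond its 95% Wilson interval (counting error over the listed genes). The search to 50 bases after the start, added later, found 4 of the 9 motifs in Ptgs2 in place of 2. No paired analysis was possible because each condition has 1 library. Calls on single genes other than Ptgs2 and Rgs2 were not rerun under the alternatives. Depth cannot be read from FPKM, so the error of low genes such as Gal and Atf3 is unknown.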
